A study of Solanum lycopersicum with 27 samples.

Results

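The genes described here had more transcript in chilled tomato roots than in both root controls. In chilled shoots their transcript was at most slightly above the starting level, as read in the libraries before transfer that the rule used. Of 18970 nuclear gene IDs measured in both organs, 25 met the rule. In roots, the mean normalized read count after 3 h at 4°C had to be at least 50, at least 2 times the mean before transfer (T0) and at least 2 times the mean after 3 h at 24°C. In shoots, the T0 mean of replicates 1 to 3 had to be at least 20, and the 3 h mean at 4°C at most 25% above that T0 mean. The members were thus chosen by these root and shoot group means. The root conditions alone were met by 155 genes, of which 68 missed the shoot T0 floor and 62 passed that floor but were above the shoot ceiling. Those values are given below as a description, without a test.

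RNA was sequenced from M82 seedlings, a cultivated tomato, raised on plates and then in hydroponics, and moved to 4°C or kept at 24°C when 18 days old. Each library came from a pool of 4 seedlings of this single genotype, and no group carried a mutation or transgene. Roots gave 9 libraries (3 per group: T0, 4°C for 3 h and 24°C for 3 h), and shoots gave 18 (6 from T0, and 3 per temperature at 30 min and again at 3 h). By the study's sequencing table, shoot T0 replicates 4 to 6 were sequenced with the 30 min libraries and T0 replicates 1 to 3 with the 3 h libraries, so these sets of T0 were kept apart. Within each organ every library sums to almost the same total (37775630 to 37777083 in roots, 20328938 to 20332140 in shoots), so the values themselves do not hold the depth of a library. Replicates of a group correlated at 0.967 to 0.994 across genes on the log2 scale. The labelled organs were checked with 3 Rubisco small subunit genes, whose product fixes carbon in green tissue: as a share of the table total, their medians over libraries were 0.000598% to 0.00138% in roots and 0.599% to 0.94% in shoots. Transcripts of the plastid genome made up 0.0217% to 0.0309% of the values in roots. In shoots they made up 6.73% to 6.77% after 3 h at 4°C, 0.25% to 0.322% after 3 h at 24°C, 0.394% to 0.718% at T0 replicates 1 to 3 and 2.05% to 2.32% at T0 replicates 4 to 6. At 30 min they made up 4.12% to 6.29% at 4°C and 0.222% to 0.642% at 24°C. The part of this shift in the shoot comparisons below was not tested.

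Tomato is a plant of warm origin, and its seedlings are injured by temperatures above freezing that hardy plants tolerate. Plants exposed to cold switch on transcription factors within minutes to hours, of which the CBF proteins of the AP2/ERF family are the best known, and these act on genes for membranes, protective solutes and cell surfaces. Roots and shoots differ in what they must protect, since shoots carry the photosynthetic apparatus and roots take up water and ions. In bulk tissue, a change in the number of cells of a type cannot be told apart from a change in RNA per cell.

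The sources used here annotate 5 of the 25 genes, by the Arabidopsis gene they resemble or by a family name. Solyc05g048830 carries the name MYB17, a transcription factor of the MYB family known in Arabidopsis from inflorescence development. Solyc06g075370 carries the name TMO6, a Dof zinc finger protein known in Arabidopsis from early vascular development. Solyc11g012980 is annotated as an ethylene-responsive transcription factor of the AP2/ERF family. Solyc03g123680 carries the name ATL3, from a family of membrane-bound RING ubiquitin ligases, and Solyc03g117800 carries the name CER3, which in Arabidopsis takes part in making the alkanes of cuticular wax. The other 20 are given by ID. By their IDs, 5 of the 25 genes lie on chromosome 2, where 10.9% of the genes measured in both organs lie. On chromosomes 4 (8.27% of those genes) and 10 (6.54%) lie 0. These chromosomes were picked after the counts were seen, and their shares were not tested. Promoter and protein sequences were not used here, because the reference tables hold no entry under these IDs.

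In roots the 25 genes had a mean at 4°C that was 2.01 to 28.9 times T0, with a median of 2.78, and 2.01 to 30.6 times the 24°C mean, with a median of 3.16. Over all genes measured in both organs, the medians were 0.994 against T0 and 0.927 against 24°C. All 3 libraries at 4°C lay above all 6 control libraries in 24 of the 25 genes, beside 8.29% of all genes, a count that the rule itself favours. The exception was Solyc06g010250, whose 4°C libraries read 297, 154 and 60.7 against 39.1, 88.8 and 97.1 at T0 and 105, 109 and 28.7 at 24°C. Its lowest 4°C library was below 2 of the T0 and 2 of the 24°C libraries.

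**Figure D1:**
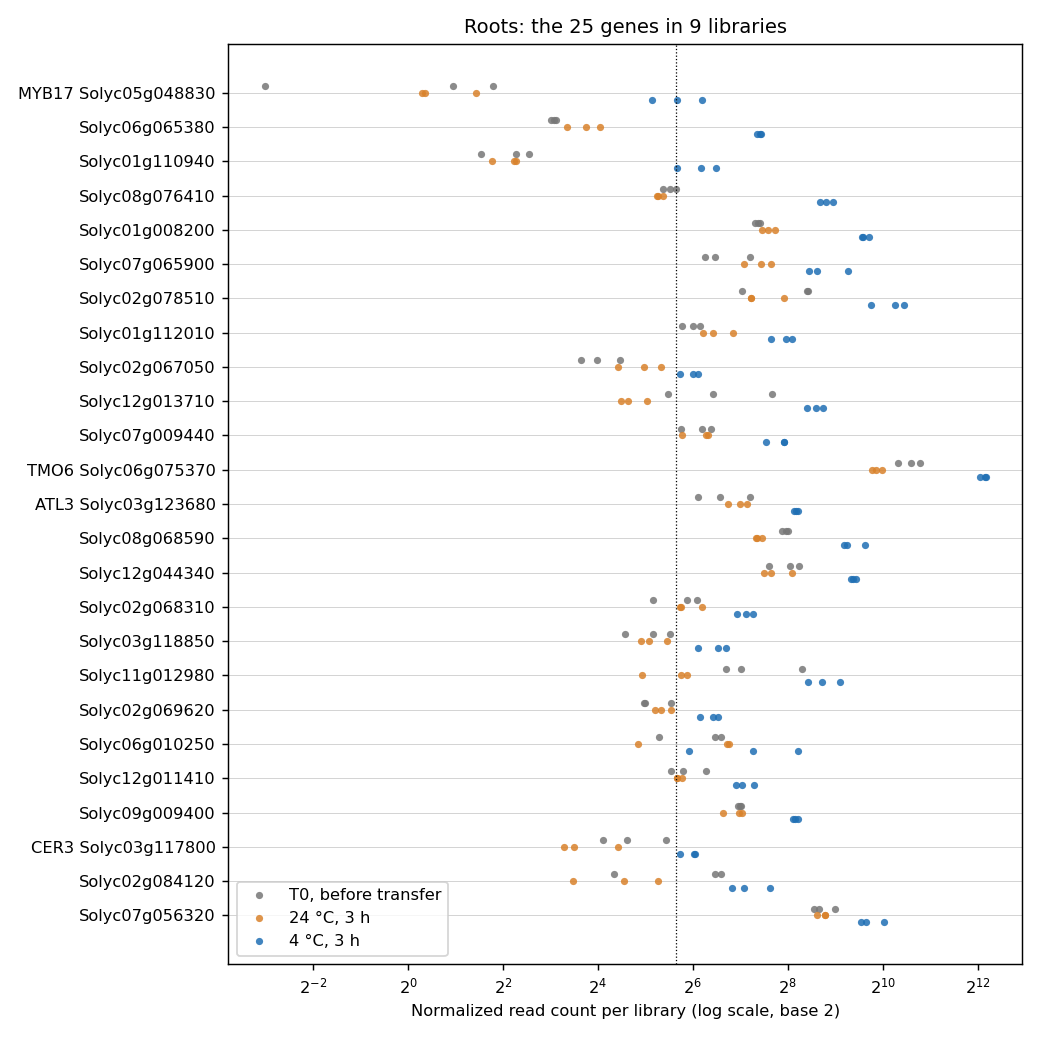
Normalized read counts of the 25 genes in the 9 root libraries on a log axis of base 2, ordered by the ratio of 4°C to T0. Each point is 1 library (grey T0, orange 24°C, blue 4°C), and the dotted line marks the floor of 50. The blue points lie to the right of the others in all genes but Solyc06g010250.

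MYB17 (Solyc05g048830) had the largest ratio of 4°C to T0. Its normalized counts in roots were 3.44, 1.93 and 0.123 at T0, 1.23, 2.69 and 1.28 at 24°C, and 73.1, 35.2 and 50.6 at 4°C. All 6 control libraries read 3.44 or less, and the cold mean was 53.0 ± 19.1 (SD, n = 3), just over the floor of 50. Without 4°C replicate 1 the mean was under that floor and the gene left the set. In shoots the same gene was present before any treatment, at 63.3, 76.5 and 83.6 in T0 replicates 1 to 3 and 36.8, 37.0 and 54.3 in T0 replicates 4 to 6. After 3 h it read 44.6, 37.8 and 52.7 at 4°C and 112, 78.6 and 120 at 24°C, so the cold libraries were all below the ambient ones and below T0 replicates 1 to 3. Its mean at 4°C was 0.605 times T0 replicates 1 to 3 and 1.05 times T0 replicates 4 to 6.

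TMO6 (Solyc06g075370), the Dof factor, was read at 1545, 1765 and 1278 at root T0, 873, 931 and 1017 at 24°C, and 4659, 4579 and 4246 at 4°C. The 4°C mean was 2.94 times T0 and 4.78 times 24°C, and the 24°C libraries were all below those of T0. In shoots, T0 replicates 1 to 3 read 421, 465 and 443, the 3 h libraries 413, 495 and 547 at 4°C and 247, 279 and 309 at 24°C. The cold shoot thus stayed within 1.10 times its T0 mean while all ambient libraries lay lower, which gave a ratio of 4°C to 24°C of 1.74.

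Solyc11g012980, the AP2/ERF gene, lay above the T0 mean at 4°C and below it at 24°C in roots. There it read 129, 104 and 317 at T0, 343, 422 and 551 at 4°C, and 58.9, 30.6 and 53.6 at 24°C. Its 4°C mean was 2.39 times T0 but 9.19 times 24°C, and T0 replicate 3 was close to the lowest cold library. Without that library the 4°C mean was 3.76 times T0 in place of 2.39, and the 24°C mean 0.409 times T0, in place of 0.26. In shoots it read 59.4, 26.2 and 26.1 in T0 replicates 1 to 3, 36.4, 37.6 and 53.7 at 4°C, and 3.09, 3.21 and 1.56 at 24°C. The ambient mean in shoots was 0.0703 times T0 while the cold mean was 1.14 times T0, and the groups at 3 h did not overlap. The gene left the set when root T0 replicate 2 or shoot T0 replicate 1 was left out, when group medians replaced means and when the libraries were rescaled.

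ATL3 (Solyc03g123680) was read at 69.0, 95.5 and 147 at root T0, 128, 107 and 141 at 24°C, and 296, 279 and 290 at 4°C. The cold mean was 2.78 times T0, and in shoots the 3 h libraries at 4°C (31.8, 51.9 and 47.0) overlapped those at 24°C (59.3, 46.8 and 61.6). CER3 (Solyc03g117800), the wax gene, was read at 43.2, 17.3 and 24.4 at root T0, 9.71, 21.5 and 11.3 at 24°C, and 65.2, 52.7 and 65.8 at 4°C. Its cold mean was 2.16 times T0, and it left the set without root T0 replicate 2. In shoots CER3 read 163, 174 and 185 in T0 replicates 1 to 3, 150, 163 and 131 after 3 h at 4°C and 284, 298 and 248 after 3 h at 24°C. There the ambient libraries were all above T0 and the cold libraries were all below them, with a ratio of 4°C to 24°C of 0.535.

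Among the genes without an annotation, Solyc06g065380 had the next largest root ratio. It read 8.44, 8.68 and 8.09 at T0, 16.5, 10.2 and 13.5 at 24°C, and 163, 172 and 172 at 4°C. The replicates were close, and the cold mean was 20.1 times T0 and 12.6 times 24°C. Solyc01g110940 read 5.89, 4.82 and 2.91 at root T0, 4.73, 3.40 and 4.87 at 24°C, and 50.8, 72.6 and 90.4 at 4°C, a ratio of 15.7 to T0. Solyc08g076410 read 45.8, 41.5 and 50.3 at T0, 41.4, 38.3 and 38.1 at 24°C, and 410, 445 and 496 at 4°C, a ratio of 9.82. In these genes, as in MYB17, root T0 and root 24°C were within 1.59 times of each other, and the cold libraries stood clear of both. After these, the ratio to T0 dropped to 4.79 (Solyc01g008200) and 4.39 (Solyc07g065900), and the remaining 19 genes lay between 2.01 and 4.26.

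Solyc01g008200 read 159, 166 and 170 at root T0, 192, 175 and 214 at 24°C, and 756, 771 and 845 at 4°C. Its shoot means were close together, at 59.7 in T0 replicates 1 to 3, 63.3 at 4°C and 72.3 at 24°C after 3 h. Solyc02g078510 read 343, 342 and 131 at root T0, 149, 150 and 244 at 24°C, and 1391, 1225 and 858 at 4°C. It was near the shoot floor, with a T0 mean of 23.3, and its shoot groups overlapped. The other genes among the 6 with the highest root counts at 4°C were Solyc07g056320 (865 at 4°C, 429 at T0), Solyc12g044340 (669 and 254) and Solyc08g068590 (660 and 247).

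The shoot side of the rule depended on which T0 libraries were used. Against T0 replicates 1 to 3, which the rule used, the 3 h mean at 4°C was 0.545 to 1.21 times T0, with a median of 0.885, beside a median of 0.911 over all genes. The T0 replicates 4 to 6 were lower for most of the 25 genes, with a median of 0.707 times replicates 1 to 3 and a range of 0.483 to 1.66, beside 0.916 over all genes. The rule itself favours genes that read high in replicates 1 to 3, so this contrast with all genes is not independent of it. Against T0 replicates 4 to 6 the cold mean was 0.404 to 2.03 times T0, with a median of 1.14. Of the 25 genes, 14 were at most 25% above this T0 mean as well, beside 73.5% of all genes. Those above it were Solyc11g012980 (2.03 times), Solyc08g068590 (1.90), Solyc03g118850 (1.85), Solyc08g076410 (1.69), Solyc09g009400 (1.54), ATL3 (1.49), Solyc12g044340 (1.48), CER3 (1.43), Solyc01g112010 (1.37), TMO6 (1.34) and Solyc02g069620 (1.251). With T0 replicates 4 to 6 in place of 1 to 3, the whole rule gave 19 genes, 13 of them among the 25. The sequencing batch and the T0 set cannot be told apart.

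**Figure D2:**
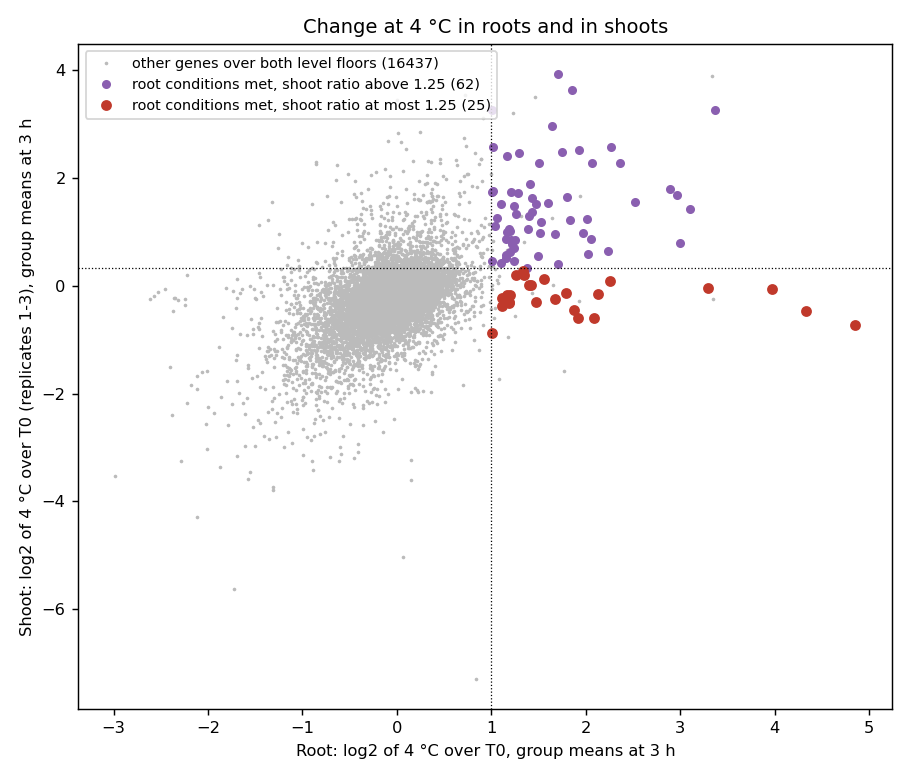
Log2 ratio of the 4°C mean at 3 h to the T0 mean in roots (horizontal) and in shoots (vertical, T0 replicates 1 to 3), for genes with a root mean of at least 50 at 4°C and a shoot T0 mean of at least 20. The 25 genes (red) and the 62 genes above the shoot ceiling (purple) lie right of the dotted line at 2-fold, with the horizontal dotted line at 25% above T0 between them; grey points right of the vertical line missed the condition on root 24°C.

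The genes nearest to each threshold show how narrow the rule is. At the root ratio to T0, Solyc07g056320 (2.01) and Solyc02g084120 (2.16) were just inside, and Solyc10g079640 (1.999) and Solyc10g081640 (1.89) just outside. At the root ratio to 24°C, Solyc02g067050 (2.01) and Solyc02g069620 (2.02) were inside, and Solyc04g008570 (1.99) and Solyc00g289230 (1.93) outside. At the shoot ceiling, Solyc03g118850 (1.21) and Solyc02g068310 (1.15) were inside, and Solyc09g059470 (1.251) and HAT22 (Solyc04g077220, 1.32), a homeobox-leucine zipper gene, outside. At the root floor of 50, MYB17 (53.0) and CER3 (61.2) were inside, and Solyc02g093500 (47.9) and Solyc10g079860 (44.2) outside. At the shoot floor of 20, Solyc02g078510 (23.3) and Solyc03g118850 (27.3) were inside, and Solyc01g108900 (17.1) and Solyc06g009500 (14.5) outside.

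The rule did not use the shoots kept at 24°C for 3 h, and there the 25 genes did not behave as one group. Each ratio below also holds a T0 or 4°C mean that the rule used. The medians and counts set beside all genes are thus a description, not independent of the rule. The 3 h mean at 24°C was 0.0638 to 2.62 times T0 replicates 1 to 3, with a median of 0.833, beside 1.09 over all genes. It was at most 0.5 times T0 in 5 of the 25 genes (7.64% of all genes) and at least 2 times T0 in 2 (4.44%). As a ratio of 4°C to 24°C the genes spanned 0.338 to 16.3, with a median of 1.06, beside 0.818 over all genes. All cold libraries were above all ambient ones in 11 of the 25 genes (14.8% of all genes) and below them in 7 (52.9%), and the other 7 overlapped. The ratio was at least 2 in 3 genes (6.49% of all genes) and at most 0.5 in 3 (10.9%). Rescaling the libraries by median ratios over nuclear genes moved the median ratio of all genes at 3 h from 0.818 to 0.981, and that of the 25 genes from 1.06 to 1.27. The ratio was then at least 2 in 6 genes and at most 0.5 in 1, with 12 genes wholly above and 5 wholly below. The shares of all genes were not counted after rescaling, and those given above hold for the deposited values only.

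Among the 11 genes wholly above, those past 2-fold had ambient libraries far below T0 and cold libraries nearer to it. The rule capped the cold shoot mean at slightly above T0. A ratio past 2-fold thus required an ambient mean below T0 and further from it than the cold mean. The rule fixed this direction in advance, so only the sizes below are a description. Solyc02g067050 read 104, 92.4 and 93.3 in T0 replicates 1 to 3, 57.4, 92.5 and 61.9 at 4°C, and 4.92, 5.14 and 8.43 at 24°C, a ratio of 4°C to 24°C of 11.5. Its cold mean was 0.731 times T0. Solyc07g065900 read 5376, 5394 and 6176 at T0, 5195, 5009 and 5055 at 4°C, and 2141, 1818 and 1856 at 24°C, a ratio of 2.62. Its cold libraries were all below T0, with a mean of 0.90 times T0. With Solyc11g012980 (16.3) these were the 3 genes past 2-fold. Solyc06g010250 (1.94), TMO6 (1.74), Solyc12g011410 (1.67), Solyc02g084120 (1.52), Solyc08g076410 (1.36), Solyc08g068590 (1.22), Solyc06g065380 (1.19) and Solyc02g069620 (1.16) made up the rest.

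The 7 genes wholly below in shoots were MYB17 (ratio of 4°C to 24°C 0.434), CER3 (0.535), Solyc09g009400 (0.338), Solyc12g013710 (0.436), Solyc01g112010 (0.669), Solyc07g009440 (0.714) and Solyc12g044340 (0.763). Solyc09g009400 read 48.3, 54.6 and 47.8 in shoot T0 replicates 1 to 3, 41.4, 46.3 and 45.8 at 4°C, and 126, 144 and 125 at 24°C. Solyc12g013710 read 18094, 16908 and 21584 at T0, 18548, 16784 and 16131 at 4°C, and 41167, 38557 and 38366 at 24°C. In both genes the cold shoot stayed near T0 while the ambient shoot was more than 2 times T0. After rescaling, Solyc01g112010 (0.80) and Solyc12g044340 (0.914) overlapped, and the other 5 stayed wholly below.

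**Figure D3:**
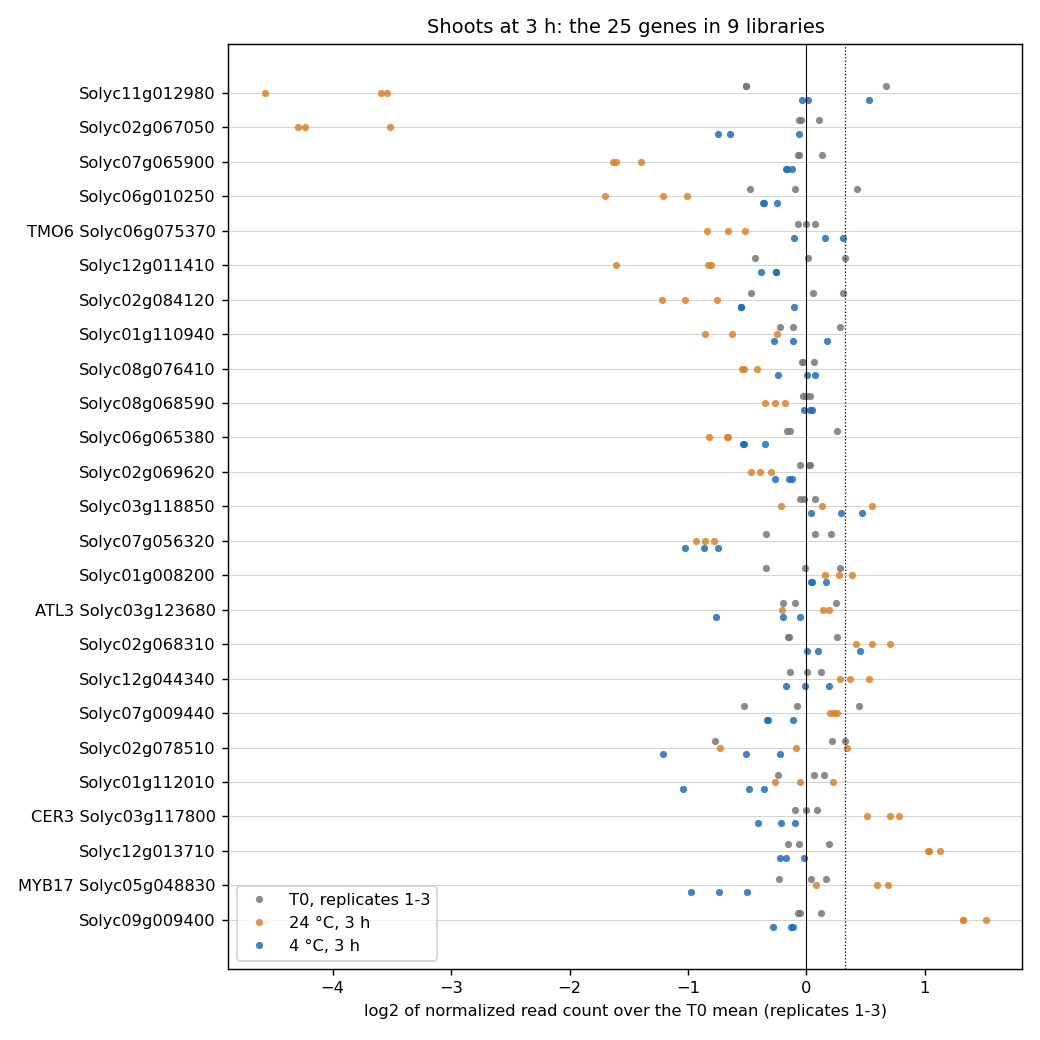
Log2 of each shoot library at 3 h over the mean of T0 replicates 1 to 3, for the 25 genes ordered by the ratio of 4°C to 24°C (grey T0, orange 24°C, blue 4°C; each point is 1 library). The dotted line marks the ceiling of 25% above T0 on the cold mean. Orange points reach from far left of the T0 level in Solyc11g012980 and Solyc02g067050 to right of it in Solyc09g009400, while blue means stay at or left of the dotted line.

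In roots both control groups were used by the rule, which caps the 24°C mean, so their values are a description only. The 24°C mean was 0.239 to 1.84 times T0, with a median of 0.955, beside 1.07 over all genes. It was at most 0.5 times T0 in 4 of the 25 genes (8.51% of all genes), namely Solyc12g013710 (0.239), Solyc11g012980 (0.26), Solyc02g084120 (0.354) and CER3 (0.4995), and at least 2 times T0 in 0 (5.81%). Without root T0 replicate 2 these counts were 4 and 2, and without root 24°C replicate 3 they were 3 and 1. All 24°C libraries were below all T0 libraries in 5 genes (23.9% of all genes) and above them in 3 (38.1%). After rescaling these counts were 6 and 1, and the shares of all genes were not counted. Solyc12g013710 lay on opposite sides of T0 in the organs at 24°C: its root libraries read 85.6, 205 and 44.4 at T0, 25, 32.7 and 22.3 at 24°C and 432, 387 and 339 at 4°C, while its ambient mean in shoots was 2.09 times T0. Solyc02g067050 likewise was at 0.0638 times T0 in ambient shoots and at 1.84 times T0 in ambient roots. Solyc11g012980 was below T0 at 24°C in both organs. The organs were normalized apart, and the difference between them was not tested.

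**Figure D4:**
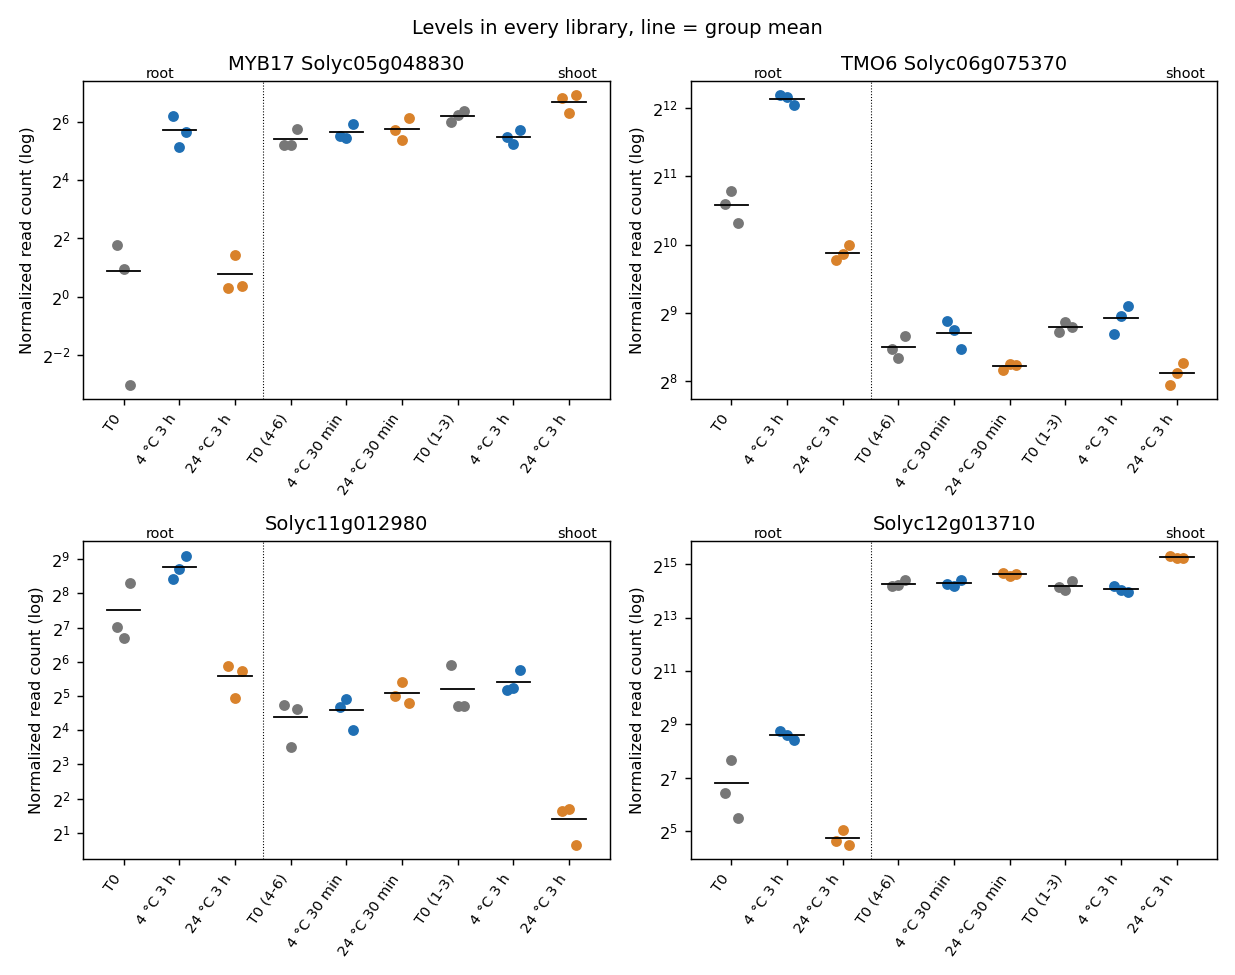
Normalized read counts (log axis of base 2) of MYB17, TMO6, Solyc11g012980 and Solyc12g013710 in each library, with a line at each group mean. Roots stand left of the dotted line and shoots right of it, with each set of T0 replicates beside the libraries it was sequenced with. In roots the blue 4°C points are the highest in all 4 genes, whereas in shoots at 3 h the orange 24°C points lie above the blue ones in MYB17 and Solyc12g013710 and below them in TMO6 and Solyc11g012980.

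The shoots at 30 min were not used by the rule and allow a test of whether the 25 genes responded to cold earlier in the shoot. All 25 passed the filter, which asked for 3 shoot libraries with a value of 10 or more. With limma on log2(value + 1), adjusted over 20535 features by Benjamini-Hochberg and called at an adjusted p under 0.01, 1 of the 25 genes differed between 4°C and 24°C, beside 6.07% of all features (585 or 2.85% higher and 661 or 3.22% lower at 4°C). After rescaling the split over all features was 653 higher and 455 lower. The median log2 difference was 0.03 over the 25 genes and -0.07 over all features. Of the 25, 13 were positive, beside 7973 of 20535 features, and 5 had an unadjusted p under 0.05, beside 5072 of 20535. Of the 62 genes above the shoot ceiling, 11 were called higher and 1 lower in the same comparison, with a median of 0.23. The rule set these apart from the 25 by their cold shoot ratio at 3 h, so this contrast is not independent of the rule. On simulated libraries of this comparison the test found 37.3% of 1.5-fold changes (67 features), 55.2% of 2-fold changes (67) and 83.3% of 4-fold changes (66). Those libraries had normal noise and far fewer changed features than the 1246 called in the data. The shares are thus not the power of the test on the data, where smaller differences could still be missed.

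The gene called was Solyc01g110940, and it was lower in the cold. It read 47.7, 44.1 and 63.0 at 4°C, 156, 157 and 151 at 24°C, and 84.2, 132 and 138 in T0 replicates 4 to 6. The cold libraries were all below the ambient ones and below that T0, the opposite of its direction in roots at 3 h. The log2 difference was -1.58 (SE 0.23, adjusted p 8.66e-05). Against T0 replicates 4 to 6 it fell by 1.16 (SE 0.23, adjusted p 0.00175), the 1 call of the 25 genes in that comparison, beside 7.1% of all features (1.93% higher, 5.17% lower). This second call ended when only the compared libraries were fitted (adjusted p 0.0447), without 4°C replicate 1 (0.0109) and without T0 replicate 6 (0.0135). At 3 h its shoot libraries overlapped, at 58.9, 80.6 and 66.0 at 4°C and 60.2, 46.2 and 39.3 at 24°C. After rescaling, its 3 h libraries at 4°C were all above those at 24°C, with a ratio of 1.69 in place of 1.41.

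Other members came close to the threshold at 30 min between 4°C and 24°C. Solyc12g013710 read 19803, 18658 and 21935 at 4°C and 26487, 24584 and 25902 at 24°C, with a log2 difference of -0.35 (SE 0.09, adjusted p 0.0104). Solyc06g065380 read 564, 373 and 596 at 4°C and 317, 298 and 329 at 24°C, with a log2 difference of 0.67 (SE 0.17, adjusted p 0.0165). TMO6 read 470, 431 and 354 at 4°C and 288, 305 and 302 at 24°C, with a log2 difference of 0.48 (SE 0.13, adjusted p 0.0184). In each the cold and ambient libraries did not overlap, and the direction was the same as in shoots at 3 h. Without 4°C replicate 2 the calls numbered 5, namely Solyc01g110940 and, higher at 4°C, Solyc06g065380, Solyc02g069620, Solyc08g068590 and Solyc08g076410. Without 4°C replicate 3 there were 3, with Solyc12g013710 and TMO6 beside Solyc01g110940. The share of all features called was not counted in either fit. MYB17 differed by -0.10, with a 95% interval of -0.62 to 0.42, CER3 by -0.28 (-0.62 to 0.07), ATL3 by 0.26 (-0.53 to 1.04) and Solyc11g012980 by -0.52 (-1.36 to 0.32). These intervals still hold differences of the sizes just given.

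**Figure D5:**
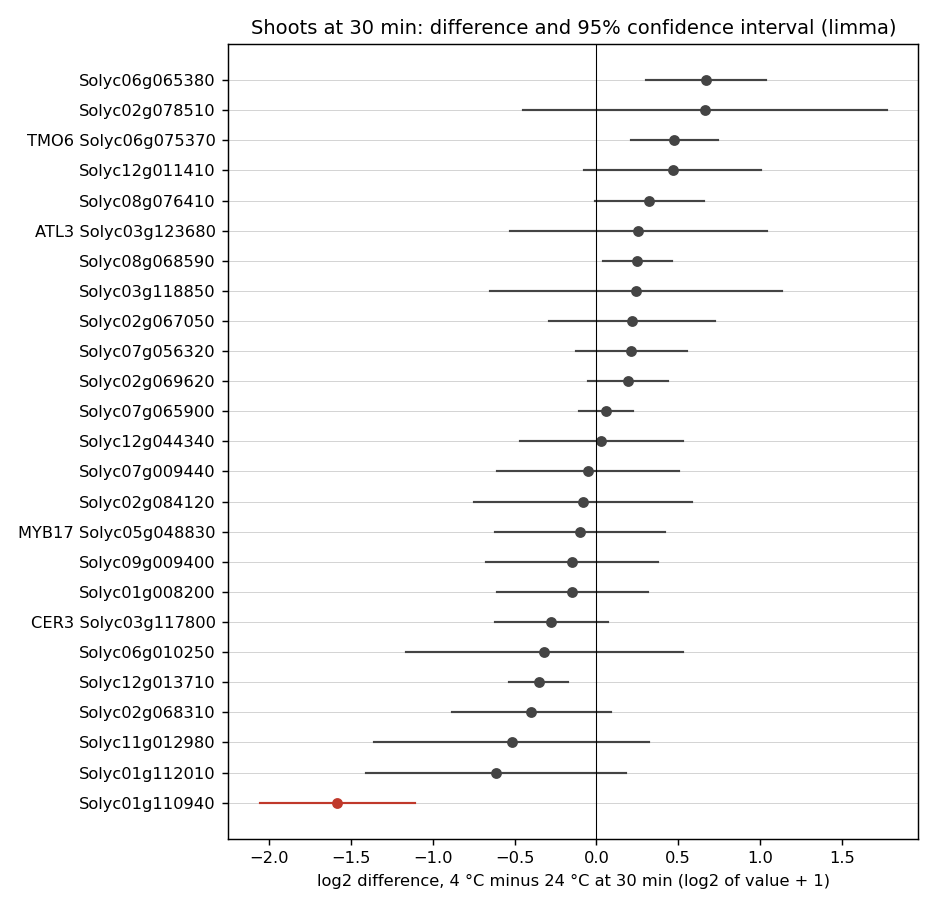
Log2 difference between 4°C and 24°C in shoots at 30 min for the 25 genes, on log2(value + 1), with 95% confidence intervals from limma (3 libraries in each group). The 1 gene called at an adjusted p under 0.01, Solyc01g110940, is drawn in red at -1.58; the other points lie between -0.61 and 0.67.

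Ambient shoots were also compared with T0 at 30 min. Against T0 replicates 4 to 6, 2 of the 25 genes were called at 24°C, beside 8.49% of all features (3.96% higher, 4.52% lower). Solyc06g065380 fell by 0.86 (SE 0.17, adjusted p 0.00224) from T0 libraries of 491, 492 and 776. Solyc12g013710 rose by 0.37 (SE 0.09, adjusted p 0.00584) from T0 libraries of 18638, 19178 and 21763. The first call ended without 24°C replicate 2 (adjusted p 0.0111) or T0 replicate 6 (0.0114). The second ended when only the compared libraries were fitted (0.0101), without any of the 24°C replicates (0.0104 to 0.0286), without T0 replicate 4 (0.0339) and without T0 replicate 5 (0.0219). The 3 comparisons at 30 min share libraries.

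The families of the annotated regulators were counted in roots between 4°C and 24°C, from the study's table of transcription factors. The study chose these genes on the same samples, so the counts are not independent evidence. Higher and lower here mean at 4°C against 24°C, which does not tell a rise over T0 from a level held near T0. Of 69 tested genes of the MYB family other than MYB17, 31 were higher and 26 lower. Of 11 Dof genes other than TMO6, 4 were higher and 3 lower. Of 65 AP2/ERF genes other than Solyc11g012980, 34 were higher and 15 lower. Over all root features 18% were higher and 28% lower in the same limma fit. In shoots at 30 min, 2.85% of all features were higher and 3.22% lower. There 7 of 61 MYB genes were higher and 5 lower, and 23 of 53 AP2/ERF genes were higher and 3 lower. Of the 11 Dof genes, 0 were higher and 1 lower, with 4 at an unadjusted p under 0.05, beside 5072 of 20535 features.

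A few genes of these families, chosen after their values were seen, are given for scale. A second tomato gene named MYB17, Solyc01g094360, rose in roots by 4.75 on the log2 scale (SE 0.35), and Solyc07g053230, named MYB15, rose by 6.75 (SE 0.33). Among Dof genes, Solyc05g007880, named CDF2 after a factor that controls flowering time in Arabidopsis, rose by 4.90 (SE 0.22). The other gene named TMO6, Solyc11g072500, differed by 0.98 (SE 0.36, adjusted p 0.0417) and was not called. Among AP2/ERF genes, the CBF genes Solyc03g124110 and Solyc03g026280, whose family binds the C-repeat of cold-regulated promoters, rose by 7.85 (SE 0.53) and 7.60 (SE 0.58).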

How the data were processed

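The authors mapped reads with BBMap to ITAG 3.2 gene models and the organelle genomes, counted them with featureCounts, and deposited 1 table per organ of TMM-normalized values from edgeR, used here as a signal because they are not whole reads. The versions of the counting and normalizing tools are not given in the sources used here. All 27 libraries and all columns of values were used (0 left out).

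The members and lists were chosen with earlier results of these data known. Means per group were taken over 3 libraries. Named genes were those with a symbol or family in the study's tables, the 6 with the largest root ratio to T0, the 6 with the highest root count at 4°C, those called at 30 min and those beside a threshold.

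Tests used limma 3.58.1 in R 4.3.3 with moderation that follows the mean, on log2(value + 1), for features reaching a value of 10 in 3 or more libraries. The deposited unit replaced the count model of the study. A fold on this scale understates changes of low genes. The fit was tested on simulated data, where it called 1 of 20335 unchanged features at 30 min. The p-values measure the spread between pools of 4 seedlings. Alternatives were another pseudocount, other filters, rescaling, other thresholds, a replicate block, and leaving out each library.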

Additional observations from a re-analysis of the deposited data

Results flagged for a closer look

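In 7 of the 25 genes every root library at 4°C was above every root library at 24°C, while every shoot library at 4°C after 3 h was below every shoot library at 24°C. The shoot pattern alone was present in 52.9% of all genes. The root direction is fixed by the way the genes were chosen, and the rule also capped the shoot mean at 4°C. The difference between organs was not tested, since the tables were normalized apart. The shoot ratios of 4°C to 24°C were 0.434 for MYB17 (Solyc05g048830), 0.535 for CER3 (Solyc03g117800), 0.338 for Solyc09g009400, 0.436 for Solyc12g013710, 0.669 for Solyc01g112010, 0.714 for Solyc07g009440 and 0.763 for Solyc12g044340. For Solyc01g112010 and Solyc12g044340 the shoot groups overlapped after rescaling.

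In Solyc11g012980 the highest of the 6 shoot T0 libraries, replicate 1 at 59.4, stood apart from the other 5, which read 11.5 to 26.8. Chance would mark about 1 in 20 genes this way. Without this library the gene was no longer in the set.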

How the results depend on the processing

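The rule gave 87 genes with root ratios of at least 1.5 and 8 with root ratios of at least 3. The other alternatives of the rule gave 18 to 33 genes, and leaving out each of 15 libraries gave 23 to 32. The same 15 of the 25 genes remained whichever library was left out, and 3 (Solyc06g065380, Solyc07g009440 and Solyc12g013710) remained under all 24 alternatives of the rule.

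At 30 min, the count of genes called between 4°C and 24°C was 4 at an adjusted p under 0.05, 2 with a filter of 50, 3 after rescaling, and 1 to 5 when a library was left out. The replicate numbers did not pair the samples, as same-numbered libraries did not all deviate together. A replicate block gave 3, beside 714 higher and 816 lower of 20436 features. Against T0, cold shoots gave 2 at an adjusted p under 0.05, 2 after rescaling and 0 to 4 when a library was left out. They gave 0 when only the compared libraries were fitted. In the full fit 7 of the 25 genes had an unadjusted p under 0.05, beside 5754 of 20535 features. Ambient shoots gave 1 when only the compared libraries were fitted and 0 to 1 when a library was left out. The share of all features called was not counted for the other filters, the adjusted p under 0.05 or the left-out libraries. Against T0 it was also not counted after rescaling or when only the compared libraries were fitted. The cause of these shifts was not tested. Rescaling took the shoot ratio of 4°C to 24°C at 3 h past 1 for Solyc01g008200 (0.876 to 1.05) and Solyc07g056320 (0.985 to 1.18), and the root ratio of 24°C to T0 under 1 for Solyc03g118850 (1.02 to 0.961) and Solyc07g009440 (1.01 to 0.947), in all of which the libraries compared overlapped. None of the calls at 30 min changed sign under an alternative.

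Rescaling left 1 gene, Solyc06g065380, with all root 24°C libraries above T0. The count of the 3 families' genes that rose in roots, 69, was 70 after rescaling, 67 with the replicate block and 62 to 68 when a library was left out. Counts past 2-fold in shoots at 3 h were 6 to 7, and in roots at 24°C 3 to 6. The values hold no read counts, so low values such as those of MYB17 in control roots are given without a counting interval.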
